A study of Homo sapiens with 4 samples.

Results

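The HOX genes were described across 4 Affymetrix arrays of human lung adenocarcinoma cells in which the level of G9a had been altered. G9a, encoded by EHMT2, is a histone methyltransferase of lysine 9 on histone H3. Members were all probe sets annotated to only 1 gene whose symbol is HOXA, HOXB, HOXC or HOXD followed by a number, with antisense transcripts left out. This gave 44 probe sets of 28 genes, of 19741 genes named in all, on an array of 54675 probe sets of which 41097 carried 1 gene symbol. The HOXB cluster on chromosome 17 had 19 probe sets for 10 genes, the HOXC cluster on chromosome 12 had 9 for 9 genes, the HOXD cluster on chromosome 2 had 15 for 8 genes, and the HOXA cluster on chromosome 7 had 1, for HOXA2. The 10 other HOXA genes and HOXD3 were not analysed here.

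The study compared gene expression at altered and unaltered levels of G9a in CL1-0 cells and in CL1-5 cells, a more invasive line derived from CL1-0. The groups were CL1-5 cells with a single G9a shRNA, CL1-5 cells with a control shRNA, CL1-0 cells expressing HA-tagged G9a, and CL1-0 cells with a control vector. All 4 were stably transduced populations kept under puromycin, and each was hybridised to 1 array. No group had a replicate, so the comparisons of single arrays carry no p-value, and precision is set by how few arrays there are.

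HOX genes encode homeodomain transcription factors that set position along the body axis in the embryo. The genes lie in 4 clusters, and within a cluster they are numbered by their order on the chromosome, with low numbers used toward the head and high numbers toward the tail. Clusters are held silent by Polycomb complexes and kept active by MLL-type methyltransferases, the low-numbered genes respond to retinoic acid, and adult tissues and the cell lines made from them often retain a pattern of active HOX genes. Genes numbered 1 to 3 are called anterior here, 4 to 8 central and 9 to 13 posterior.

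Values are MAS5 signals on a linear scale as deposited, and signals of different probe sets are not set against each other as levels of different genes. A probe set was called measured in a comparison if at least 1 of its 2 arrays reached 12.5, the median over all deposited values. The 107 probe sets of olfactory receptors, genes not expected in lung cells, had a 95th percentile between 12.5 and 14.6 on the 4 arrays, so values near the threshold are close to background. Ratios are log2 ratios taken after setting values below 3.35, the 25th percentile of all values, to that floor. A ratio with 1 array below 12.5 sets a signal against background and is imprecise. For some of the genes named below, the fold as deposited with values under 12.5 set to it is then given as "at least". That choice was made after the values were seen. A ratio printed without "at least" can also have 1 array below 12.5. Ratios are given relative to the median measured gene of the same comparison and called relative. That median gene stood at a log2 ratio of 0.42 as deposited for G9a shRNA over control shRNA, -0.08 for HA-G9a over vector, and -0.01 for CL1-5 control shRNA over CL1-0 vector. Ratios of several probe sets for 1 gene scattered with a pooled SD of 0.54, 0.51 and 0.65 in those comparisons, in that order, over all genes, and of 0.26, 0.48 and 0.77 over the HOX genes.

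The targeted gene followed the labels by its brightest probe set. The bright EHMT2 probe set read 28.1 with G9a shRNA against 376 with control shRNA, and 862 with HA-G9a against 420 with the vector. A dimmer one read 9.98 against 34.2 in CL1-5 and 44.2 against 38.0 in CL1-0. The lines are labelled as derived from type II alveolar cells, yet of 8 type II alveolar markers on the array (10 were listed) none reached 84.2, the 75th percentile of all values, on any array, the highest being 60.2 for NKX2-1 with HA-G9a.

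Of the 44 HOX probe sets, 33 for 24 genes were at or above 12.5 on at least 1 array, and 14 for 11 genes were at or above 84.2. The other 11 probe sets ranged from 0.33 to 11.2, and HOXB1, HOXB13, HOXC12 and HOXD12 had no probe set above the threshold. The counts on single arrays were similar, with 24 probe sets at or above it with G9a shRNA, 24 with control shRNA, 26 with HA-G9a and 27 with the vector. The plot of signals by cluster position shows the brightest probe set of each gene.

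**Figure D1:**
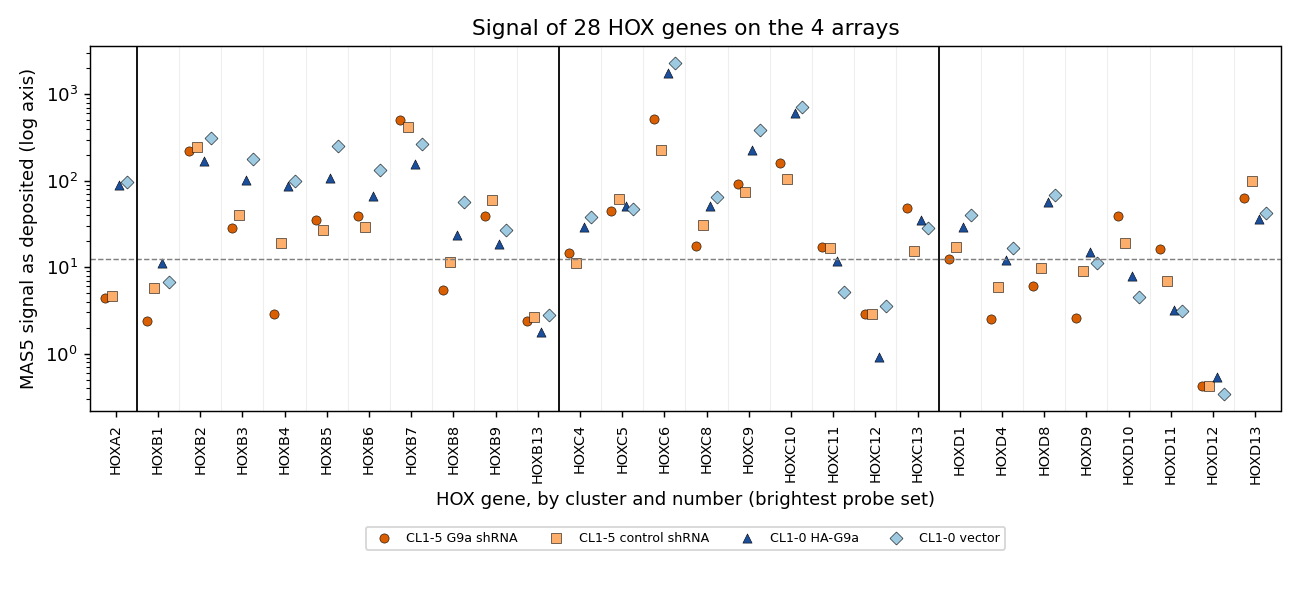
MAS5 signal (log axis) of the brightest probe set of each of the 28 HOX genes, ordered by cluster (divided by black lines) and number, with 1 point for each array and a dashed line at 12.5. HOXC6 was at 1764 with HA-G9a and 2329.8 with the vector, and HOXD10 and HOXD13 had their highest points in CL1-5.

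The 2 control populations differed in which HOX genes were bright. They also differ in construct, a control shRNA in CL1-5 and a control vector in CL1-0, and line and construct cannot be told apart. CL1-5 cells had lower signals than CL1-0 cells for HOXA2, for most of the HOXB and HOXC genes numbered 3 to 10 and for HOXD1, HOXD4 and HOXD8, and higher signals for HOXB9, HOXC11, HOXD10 and HOXD13. Relative to the median gene, 16 of 30 measured HOX probe sets were at least 2-fold lower in the CL1-5 control than in the CL1-0 vector, against 12.3% of all measured single-gene probe sets, and 8 were at least 2-fold higher, against 14.0%. The median HOX log2 ratio was -1.16, beside 0.04 over all measured single-gene probe sets. Among probe sets that reached 84.2 on 1 of the 2 arrays, 11 of 14 passed 2-fold in either direction, against 20.4% of all. With values under 12.5 set to it, 14 of 30 were lower, against 8.51% of all, and 6 higher, against 10.7%. The sign of the ratio was below 0 for 18 probe sets and above 0 for 12, and this split was the same as deposited, with arrays scaled to one median, after quantile normalization and with log2(value + 16).

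By position in the cluster, most central genes were lower in CL1-5 and posterior genes went both ways. Taking 1 probe set per gene, 9 of 11 measured central genes were at least 2-fold lower in the CL1-5 control and 0 were higher. Their median relative log2 ratio was -2.18. Of 4 measured anterior genes 3 were lower and 0 higher (median -1.69). Of 7 measured posterior genes 4 were higher and 2 lower (median 1.18). Of the higher ones, HOXC11 and HOXD10 were at background on the vector array, so their ratios could only be above 0. They were at least 1.34-fold and 1.52-fold higher, bounds under 2-fold. HOXA2, HOXB8, HOXC4, HOXD4 and HOXD8 were below the threshold on the CL1-5 control array, so their ratios could only be below 0. Of these only HOXD4, at least 1.34-fold lower, had a bound under 2-fold. Among all measured genes 13.2% were lower and 12.6% higher. HOXB7 among the central genes was above 0, and HOXC9 and HOXC10 among the posterior genes were lower. The classes were applied with the values known, and no difference between them was tested.

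**Figure D2:**
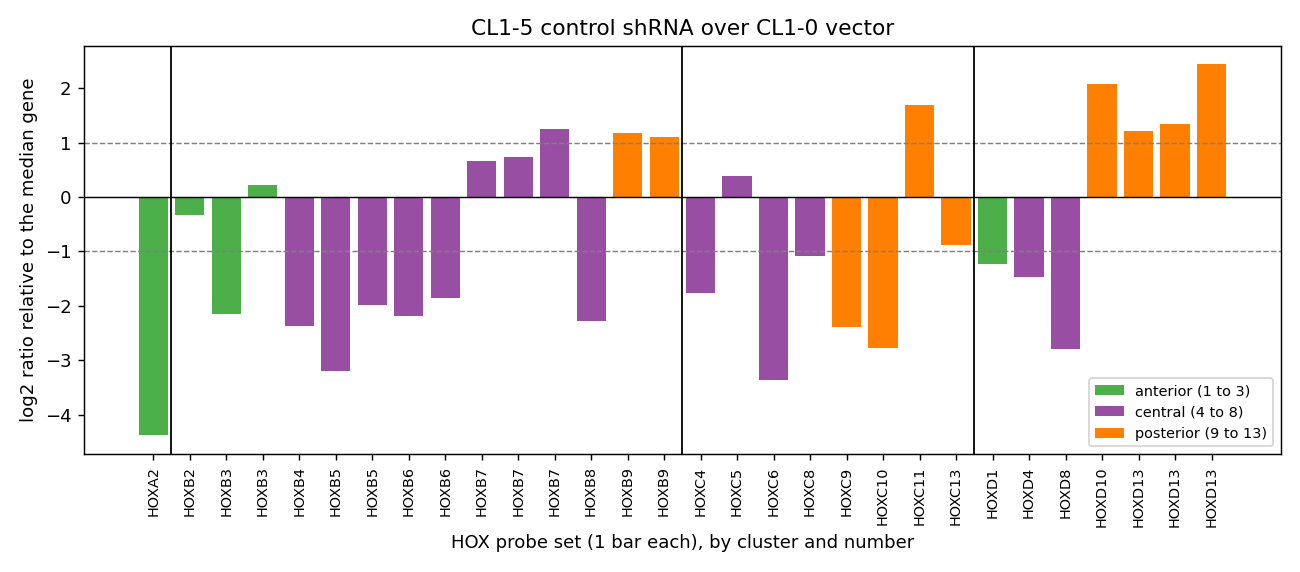
Relative log2 ratio of CL1-5 control shRNA over CL1-0 vector for the 30 measured HOX probe sets, 1 bar each, ordered by cluster and number and coloured by position class; dashed lines mark 2-fold. Bars of the HOXD cluster point down for HOXD1, HOXD4 and HOXD8 and up for HOXD10 and HOXD13.

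In the HOXA cluster HOXA2, a patterning gene of the hindbrain and the branchial arches, was at background in CL1-5. Its signals in CL1-5 were 4.46 with G9a shRNA and 4.63 with control shRNA, and in CL1-0 they were 89.4 with HA-G9a and 97.0 with the vector. The CL1-5 arrays were thus within the range of the olfactory receptors and the CL1-0 arrays were well above it. The fold between the controls was at least 7.77, with a relative log2 ratio of -4.38 from the signals as they stand.

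In the HOXB cluster the central genes other than HOXB7 were lower in CL1-5. HOXB5, a gene active in the developing lung mesenchyme and gut, read 35.5 with G9a shRNA and 27.3 with control shRNA in CL1-5, and 107.7 with HA-G9a and 253.6 with the vector in CL1-0, a relative log2 ratio of -3.20 between the controls. Its other probe set gave -1.99. For HOXB6, its neighbour, the signals were 39.5 and 29.4 in CL1-5 with G9a shRNA and control shRNA, and 67.3 and 135 in CL1-0 with HA-G9a and vector, a ratio of -2.18, with -1.86 from a dimmer probe set. All of these probe sets were brighter on both CL1-0 arrays than on either CL1-5 array.

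HOXB4, a gene known for the expansion of blood stem cells, read 2.90 with G9a shRNA, 18.9 with control shRNA, 86.4 with HA-G9a and 98.3 with the vector, a ratio of -2.36 between the controls. HOXB8, known as a block to myeloid differentiation, read 5.44, 11.5, 23.6 and 56.3 on the same arrays, with a ratio of -2.27, while its second probe set was at background throughout. The probe sets of HOXB3, a hindbrain gene, did not agree. The brighter read 28.1 with G9a shRNA, 39.9 with control shRNA, 102 with HA-G9a and 179 with the vector (ratio -2.15 between the controls), whereas the dimmer read 7.38, 17.1, 5.70 and 14.8 (ratio 0.22).

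Other HOXB genes did not follow this direction. HOXB2, a target of KROX20 in the hindbrain, was bright in both lines, at 223 with G9a shRNA and 248 with control shRNA in CL1-5, and 171 with HA-G9a and 313 with the vector in CL1-0. HOXB7, reported as overexpressed in several carcinomas, read 506 with G9a shRNA, 413 with control shRNA, 157 with HA-G9a and 263 with the vector, and its 3 probe sets gave ratios of 0.66, 0.74 and 1.26 between the controls. HOXB9, a posterior gene linked to metastasis in lung adenocarcinoma, read 38.8, 59.8, 18.7 and 26.8 in the same order, and its 2 probe sets gave 1.18 and 1.10.

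In the HOXC cluster HOXC6, HOXC9 and HOXC10 were lower in CL1-5. HOXC6, reported as raised in several carcinomas, read 522 with G9a shRNA and 225 with control shRNA in CL1-5, and 1764 with HA-G9a and 2329.8 with the vector in CL1-0, a relative log2 ratio of -3.36 between the controls. HOXC10, a posterior gene of the lumbar region and hind limb, read 159.8 with G9a shRNA, 104 with control shRNA, 606 with HA-G9a and 719 with the vector, a ratio of -2.78. HOXC9, a thoracic patterning gene, read 91.3, 73.9, 229 and 388, a ratio of -2.38. In each of these genes the dimmer CL1-0 array was more than 2-fold above the brighter CL1-5 array.

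Dimmer HOXC genes varied. HOXC4 read 14.7 with G9a shRNA, 11.2 with control shRNA, 29.4 with HA-G9a and 38.5 with the vector (ratio -1.77), and HOXC8, a gene of the thoracic skeleton and motor neurons, read 17.7, 30.5, 50.7 and 65.2 (ratio -1.08). HOXC5 read 44.7, 61.2, 51.0 and 47.5 and did not separate the lines. In RefSeq the spans of HOXC4, HOXC5 and HOXC6, 3 genes with 1 common lowest coordinate, overlap, so signals from exons that they share cannot be told apart. HOXC11 was near background, at 17.3, 16.7, 11.7 and 5.19, with a ratio of 1.70 between the controls, and HOXC13, a gene of hair and nail keratins, read 48.0, 15.4, 34.9 and 28.6, with a ratio of -0.88.

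In the HOXD cluster the direction turned between HOXD8 and HOXD10. HOXD8 read 6.05 with G9a shRNA and 9.81 with control shRNA in CL1-5, and 57.1 with HA-G9a and 68.5 with the vector in CL1-0, at least 5.48-fold lower in the CL1-5 control (relative log2 ratio -2.79). HOXD1 read 12.5, 17.1, 29.4 and 40.7 on the same arrays (ratio -1.24), and HOXD4 2.50, 5.95, 12.2 and 16.7 (ratio -1.48). For both genes the other probe set was below the threshold in these controls.

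HOXD10, known as a target of the microRNA miR-10b, read 38.9 with G9a shRNA, 18.9 with control shRNA, 7.95 with HA-G9a and 4.56 with the vector, a ratio of 2.07, and its 2 other probe sets were at background. HOXD13, the gene of digit and genital development, read 63.2 with G9a shRNA and 99.0 with control shRNA in CL1-5, and 36.5 with HA-G9a and 42.9 with the vector in CL1-0. Its 3 probe sets gave ratios of 1.22, 1.34 and 2.44. HOXD11 was above the threshold on 1 array, at 16.5 with G9a shRNA against 7.01, 3.23 and 3.15 on the others in the order used above, and HOXD9 on 1, at 15.2 with HA-G9a against 11.1 with the vector. Because 1 control array was at background, the fold between the controls was at least 1.52 for HOXD10, 1.34 for HOXD4 and 1.34 for HOXC11, all under 2-fold, and at least 2.82 for the dimmest HOXD13 probe set.

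Promoter windows of 250 bases before to 50 bases after the gene start were matched by symbol in RefSeq (GRCh38.p14) for 11 of the 28 genes, which gave 10 different windows because HOXC4 and HOXC5 share theirs. The windows of 3 genes that were lower in CL1-5 and of 1 that was higher are shown, to let the base composition of genes on the 2 sides be seen, with each CG dinucleotide, the target of DNA methylation, in capitals. They are HOXA2 at chr7:27102634-27102933 (minus strand), HOXC4 at chr12:54016638-54016937 (plus strand), HOXD8 at chr2:176129455-176129754 (plus strand) and HOXD13 at chr2:176092471-176092770 (plus strand), each written 5′ to 3′ along the gene with the start at base 251.
HOXA2: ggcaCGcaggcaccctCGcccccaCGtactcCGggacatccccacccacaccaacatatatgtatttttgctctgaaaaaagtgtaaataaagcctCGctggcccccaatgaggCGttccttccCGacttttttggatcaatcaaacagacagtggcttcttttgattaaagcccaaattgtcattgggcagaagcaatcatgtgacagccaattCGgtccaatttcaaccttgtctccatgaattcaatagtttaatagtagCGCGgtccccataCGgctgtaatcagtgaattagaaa
HOXC4: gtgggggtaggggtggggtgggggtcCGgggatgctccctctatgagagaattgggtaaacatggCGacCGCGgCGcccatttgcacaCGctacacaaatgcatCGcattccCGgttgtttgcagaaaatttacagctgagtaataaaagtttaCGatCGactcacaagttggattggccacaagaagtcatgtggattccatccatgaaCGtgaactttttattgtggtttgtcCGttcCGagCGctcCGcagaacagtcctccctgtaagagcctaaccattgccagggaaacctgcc
HOXD8: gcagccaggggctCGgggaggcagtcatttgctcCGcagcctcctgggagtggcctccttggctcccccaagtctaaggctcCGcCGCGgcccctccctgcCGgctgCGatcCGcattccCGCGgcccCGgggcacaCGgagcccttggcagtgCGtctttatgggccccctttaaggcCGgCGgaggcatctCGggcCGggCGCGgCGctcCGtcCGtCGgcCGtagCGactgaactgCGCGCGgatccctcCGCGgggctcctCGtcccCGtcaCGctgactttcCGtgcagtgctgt
HOXD13: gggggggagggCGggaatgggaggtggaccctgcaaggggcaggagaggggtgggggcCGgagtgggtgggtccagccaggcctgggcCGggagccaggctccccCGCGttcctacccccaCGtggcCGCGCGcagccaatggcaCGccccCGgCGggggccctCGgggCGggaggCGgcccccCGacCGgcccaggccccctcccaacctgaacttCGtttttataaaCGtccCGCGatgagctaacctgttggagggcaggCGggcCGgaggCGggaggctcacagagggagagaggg

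These windows held 11, 15, 34 and 24 CG dinucleotides in the order shown, beside a median of 14 over all 35116 windows of the table. Their GC content was 46.3%, 51.7%, 71.7% and 74.0%, beside a median of 58.7%. CG content thus did not divide along the direction of the difference, since HOXD8, lower in CL1-5, had more CG than HOXD13, higher in CL1-5. Among windows not shown, HOXD1 and HOXD4, lower in CL1-5, held 36 and 4, and HOXD10, higher in CL1-5, held 23. The HOXC4 window is also that of HOXC5, which did not separate the lines. The letters TATAAA were searched on both strands and were found in the HOXD13 window at base 224, where the matches of the 2 strands overlap, and in no other of the 10 windows; 11.5% of all windows hold them. The letters TGATTNAT, a consensus of PBX and HOX proteins bound together, were found in the windows of HOXA2 and HOXD11, and 2.82% of all windows hold them on either strand.

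Both populations of a line were then compared with both of the other. Only the CL1-5 populations carry an shRNA, so line and construct cannot be told apart here either. Every CL1-5 array was at least 2-fold below every CL1-0 array, on deposited values with the floor, for 11 of 33 HOX probe sets, against 3.52% of all single-gene probe sets. These belonged to HOXA2, HOXB3, HOXB4, HOXB5, HOXB8, HOXC6, HOXC9, HOXC10, HOXD4 and HOXD8. Every CL1-5 array was at least 2-fold above for 3 probe sets, of HOXD10, HOXD11 and HOXD13, against 6.38%. HOXD11 reached the signal threshold only with G9a shRNA, and its 7.01 with control shRNA was set against CL1-0 values under the floor. The HOXD4 probe set reached it only with the vector, and read 5.95 with control shRNA against 12.2 with HA-G9a. For both genes the smallest gap thus lay between values at background. CL1-0 arrays were at background also for HOXD10 and the dimmest HOXD13 probe set, and CL1-5 arrays for HOXA2, HOXB8 and HOXD8.

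By limma over 27159 single-gene probe sets, 2 of 33 HOX probe sets passed a Benjamini-Hochberg adjusted p of 0.05 as lower in CL1-5, against 1.03% of all, and 0 as higher, against 1.11%. HOXA2 had a log2 difference of -4.36 (SE 0.31, limma adjusted p = 0.0100) and HOXD8 of -3.02 (SE 0.39, limma adjusted p = 0.033). Both genes were below 12.5 on each CL1-5 array. The limma differences are on deposited values with the floor and are not relative to the median gene. The median limma difference was 0.26 over all probe sets and -1.23 over the HOX probe sets. Next came the dimmest HOXD13 probe set at 2.23 (SE 0.35, limma adjusted p = 0.051), while the brighter ones gave 1.37 (limma adjusted p = 0.185) and 0.999 (limma adjusted p = 0.232), and then HOXC10 at -2.36 (SE 0.37, limma adjusted p = 0.052). At an unadjusted p of 0.05, 25 of the 33 HOX probe sets passed, 16 lower and 9 higher, against 20.1% of all. The 2 arrays of a line differ in G9a, so the spread within a line holds that difference, and the fit had 2 residual degrees of freedom. Leaving out any 1 of the 4 populations ended both calls, with adjusted p-values from 0.138 to 0.433 for HOXA2 and from 0.138 to 0.481 for HOXD8, and with arrays scaled to one median or quantile-normalized the called genes were HOXA2 and HOXC10.

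Markers of other cell types moved with the lines. The 6 endothelial markers summed to 483 in the CL1-5 control against 44.6 in the CL1-0 vector, led by PECAM1 at 318 against 13.3. VWF (1.97 against 10.4) and TEK (1.86 against 6.64), below 12.5 on both arrays, went the other way. The 6 fibroblast markers summed to 36.0 against 444, led by COL3A1 at 3.75 against 330. PDGFRB, below 12.5 on both arrays, went the other way (6.89 against 1.50). The leukocyte list, 5 of 6 on the array, summed to 37.9 against 39.8, with PTPRC at 2.59 against 3.88. Fewer cells of a kind and less RNA per cell cannot be told apart in such bulk samples, and the part of these genes in the HOX differences was not tested.

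HA-G9a in CL1-0 went with slightly lower HOX signals. Relative to the median gene, 3 of 28 measured HOX probe sets were at least 2-fold lower, against 3.78% of all, and 0 were higher, against 5.86%. The ratio was below 0 for 24 of the 28, beside 48.4% of all measured single-gene probe sets, and the median HOX ratio was -0.34, beside 0.01. With ratios as deposited, with arrays scaled to one median and after quantile normalization the number below 0 was 24 as well, and with log2(value + 16) it was 23. The 18 spiked hybridization controls had a median relative ratio of -0.24 on the same arrays (SD 0.13 between probe sets). Their part in the HOX ratios was not tested. The 6 fibroblast markers summed to 168 with HA-G9a against 444 with the vector, led by COL3A1 at 59.7 against 330. COL1A2 (18.0 against 12.1) went the other way, as did PDGFRB (11.7 against 1.50) and LUM (11.5 against 1.22). PDGFRB and LUM were below 12.5 on both arrays. Of 4 measured fibroblast markers, 1 was at least 2-fold lower, against 3.74% of all genes, and 0 were higher, against 5.46%. The part of these markers was not tested either.

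The HOXB cluster had the lowest median ratio of the HOXB, HOXC and HOXD clusters, a difference that was not tested. Of 14 measured HOXB probe sets 13 were below 0, with a median of -0.68, against 5 of 7 HOXC probe sets with a median of -0.28 and 5 of 6 HOXD probe sets with a median of -0.27. HOXB5 had a signal of 107.7 under HA-G9a against 253.6 under the vector, a relative log2 ratio of -1.15, and its second probe set 88.4 against 152, a ratio of -0.70. HOXB8 gave 23.6 for HA-G9a against 56.3 for the vector (ratio -1.17). HOXB3 gave 102 against 179 (ratio -0.73), and its dimmer probe set 5.70 against 14.8 (ratio -1.29). Of 12 HOX probe sets that reached 84.2 on 1 of the 2 arrays, 1 passed 2-fold, against 2.21% of all.

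HOXB6 had a relative ratio of -0.92 and passed 2-fold as deposited (-1.003) and with arrays scaled to one median (-1.08). Further genes stayed within 2-fold relative to the median gene, HOXB2 at -0.79 and HOXC9 at -0.68. HOXB7 gave -0.67 and -0.42 from its bright probe sets and 0.63 from the dimmer one. By contrast HOXA2 at -0.04, HOXB4 at -0.10, HOXC10 at -0.16 and HOXD8 at -0.18 had nearly equal signals on the 2 arrays, although all 4 were far lower in CL1-5. The vector array enters the comparison of the controls as well.

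**Figure D3:**
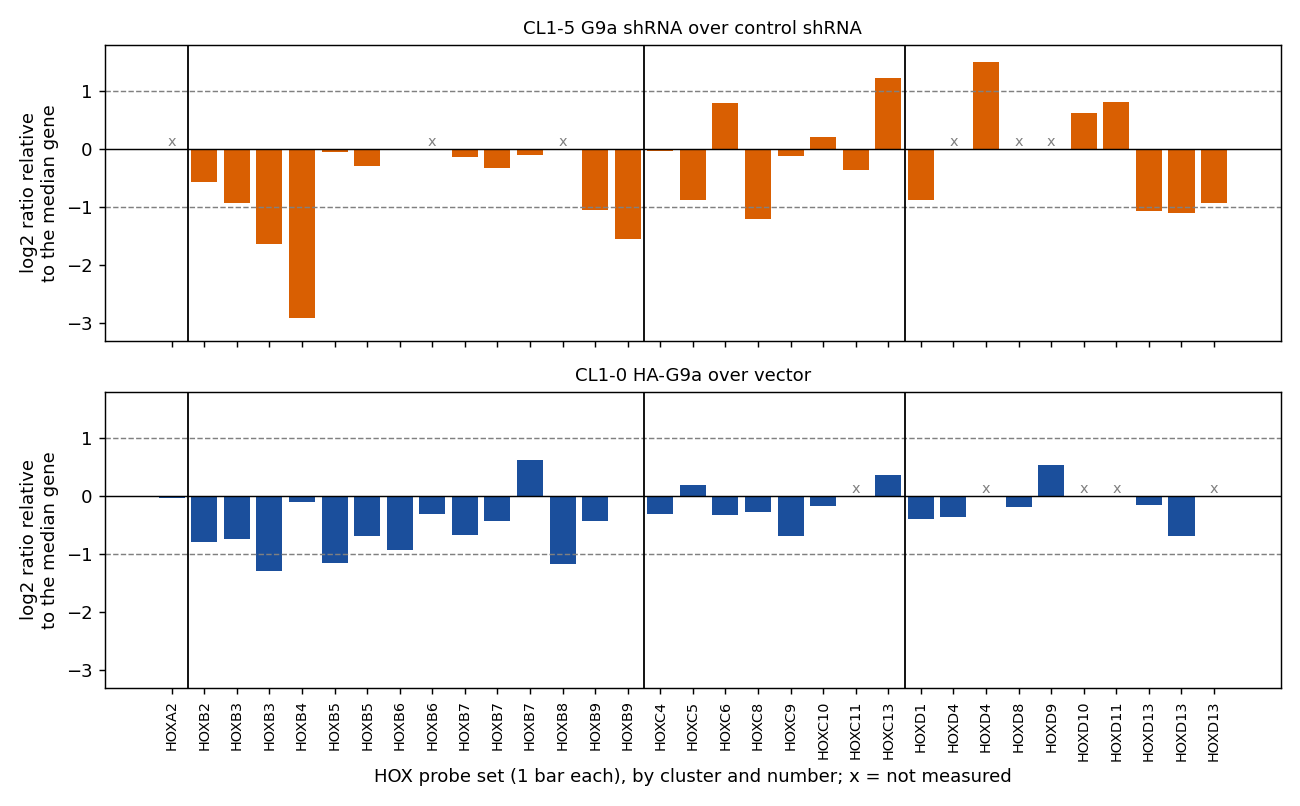
Relative log2 ratios of HOX probe sets, 1 bar each, for CL1-5 G9a shRNA over control shRNA (top) and CL1-0 HA-G9a over vector (bottom); dashed lines mark 2-fold and a grey x marks a probe set not measured in that comparison. In the lower panel 24 of 28 bars are below 0, and in the upper panel HOXB4 is the lowest.

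After the knockdown of G9a in CL1-5, HOXB4, HOXB9, HOXC8, HOXD13 and the dimmer HOXB3 probe set had lower signals relative to the median gene, and HOXC13 and a dim HOXD4 probe set higher ones. Relative to the median gene, 7 of 27 measured HOX probe sets were at least 2-fold lower after the knockdown, against 8.20% of all, and 2 were higher, against 8.13%, with a median of -0.32 beside -0.01. Of 8 that reached 84.2 on 1 of the 2 arrays, 1 passed 2-fold, against 10.2% of all. The ratio was below 0 for 20 of 27, beside 50.6% of all. As deposited, where the shift of 0.42 stays in every ratio, the split past 2-fold was 3 lower and 5 higher, the median was 0.10 beside 0.41, and 12 of 27 were below 0, beside 22.8% of all. The hybridization controls had a median relative ratio of -0.31 (SD 0.11), and their part was not tested.

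HOXB4 was at 2.90 with G9a shRNA against 18.9 with control shRNA, which is at least 1.52-fold lower as deposited. Its relative log2 ratio of -2.92 depends on the floor and was -2.50 as deposited and -2.65 with arrays scaled to one median. HOXB9 was lower by both probe sets, at 38.8 against 59.8 (ratio -1.04) and 19.8 against 43.5 (ratio -1.55). HOXD13 read 63.2 against 99.0 (ratio -1.07), with -1.10 and -0.92 from its other probe sets. These posterior genes were higher in the CL1-5 control than in the CL1-0 vector, and the CL1-5 control array enters both comparisons. Lower as well were HOXC8 (ratio -1.21) and the dimmer HOXB3 probe set (ratio -1.63). As deposited HOXC8, HOXD13 and the first HOXB9 probe set were within 2-fold.

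Higher after the knockdown was HOXC13, at 48.0 with G9a shRNA against 15.4 with control shRNA, a relative log2 ratio of 1.22. The second HOXD4 probe set read 12.8 against 0.529 (ratio 1.51), just above the threshold on 1 array, while the first was below the threshold on both arrays at 2.50 against 5.95. HOXC6 read 522 against 225, a ratio of 0.80 relative to the median gene and 1.22 as deposited. HOXD10 read 38.9 against 18.9 and HOXD11 16.5 against 7.01, with relative ratios of 0.62 and 0.81, and as deposited 1.04 and 1.23. HOXA2 and HOXD8, well above background in CL1-0 but at background in the CL1-5 control, stayed at background after the knockdown. So did HOXB8, at 5.44 against 11.5. HOXC4, also below the threshold in the CL1-5 control, read 14.7 with G9a shRNA against 11.2. The bright probe sets of HOXB7, HOXB5, HOXB6, HOXC9 and HOXC10 were within 2-fold.

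The dimmer HOXB3 probe set was past 2-fold in both G9a comparisons, lower each time, with the dimmer array at background in each. Its fold was at least 1.37 after the knockdown and at least 1.18 with HA-G9a. Endothelial markers summed to 103 with G9a shRNA against 483 with control shRNA. All 4 measured of 6 were at least 2-fold lower relative to the median gene, against 7.76% of all genes. PECAM1 read 81.5 with G9a shRNA against 318 with control shRNA. CLDN5, CDH5 and KDR reached the threshold on the control array only, so their ratios could only be below 0. They were at least 6.55-fold, 4.99-fold and 1.37-fold lower as deposited. VWF and TEK were at 1.97 and 1.86 in the control. The part of these genes in the HOX ratios was not tested.

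Among the cofactors with which HOX proteins bind DNA, the 3 MEIS genes were lower in CL1-5. Of 10 measured cofactors 4 were at least 2-fold lower in the CL1-5 control than in the CL1-0 vector and 0 higher, against 13.2% and 12.6% of all genes, and their median log2 ratio was 0.10. MEIS1, a TALE homeodomain partner of HOX proteins, read 68.5 with G9a shRNA and 33.3 with control shRNA in CL1-5, and 167 with HA-G9a and 172 with the vector in CL1-0, a ratio of -2.35 between the controls. MEIS3 had a ratio of -2.52 (at least 4.45-fold), MEIS2 of -1.13 and PBX4 of -1.05. PBX3, which stabilises HOX binding, was bright on every array, at 422, 350 and 252 with G9a shRNA, control shRNA and HA-G9a, and 257 with the vector.

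After the knockdown 0 of 10 cofactors passed 2-fold, against 7.76% of all genes lower and 8.13% higher, but as deposited MEIS1 (1.04) and MEIS3 (1.36) did. With HA-G9a, 1 was higher and 1 lower, against 5.46% and 3.74%. The higher was MEIS2, at 292 with HA-G9a against 144 with the vector (relative log2 ratio 1.11). The lower was PKNOX2, a dim gene, at 3.75 against 12.8 (ratio -1.68, at least 1.02-fold).

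Among regulators of the clusters RARB, RARG, CYP26A1, CYP26B1 and CDX2 were lower in CL1-5. These 5 of 16 measured regulators were at least 2-fold lower in the CL1-5 control, against 13.2% of all genes, and 0 were higher, against 12.6% (median -0.18). The retinoic acid receptor gene RARA read 112 with G9a shRNA, 69.7 with control shRNA, 55.6 with HA-G9a and 74.6 with the vector, a ratio of -0.08 between the controls. RARB, a retinoic acid receptor that retinoic acid itself induces, read 9.33 with G9a shRNA and 7.31 with control shRNA in CL1-5, and 203 with HA-G9a and 228 with the vector in CL1-0, at least 18.3-fold lower in the CL1-5 control. CYP26A1, which degrades retinoic acid and is induced by it, read 2.07, 0.633, 221 and 128 on the same arrays, at least 10.3-fold lower.

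CYP26B1, a second such enzyme, had a ratio of -3.06, CDX2, a homeodomain activator of HOX genes, of -2.40 (at least 1.55-fold), and the receptor gene RARG of -1.91. KMT2A, which encodes MLL1, read 160.3 with G9a shRNA, 129 with control shRNA, 116 with HA-G9a and 114 with the vector, and MEN1, ASH2L, WDR5, RBBP5, DPY30 and CTCF were within 2-fold between the controls. After the knockdown 0 of 13 measured regulators passed 2-fold, against 7.76% of all genes lower and 8.13% higher; DOT1L was at 0.98, and at 1.40 as deposited. With HA-G9a 1 of 16 was lower, against 3.74%, CYP26B1 at 119 against 369 (ratio -1.55), and 0 were higher, against 5.46%.

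Noncoding transcripts of the clusters were dim. Of 11 on the array, 8 were measured between the controls, with 3 at least 2-fold lower in CL1-5, against 13.2% of all genes, and 0 higher, against 12.6% (median log2 ratio -0.76). HOXA-AS2, which lies among the HOXA genes, read 1.07 with G9a shRNA and 3.68 with control shRNA in CL1-5, and 48.1 with HA-G9a and 50.03 with the vector in CL1-0. The brightest HOXB-AS3 probe set had a ratio of -3.62 (at least 3.33-fold), but others read 12.5 in the CL1-5 control against 21.4 in the CL1-0 vector and 10.3 against 22.0. HOXD-AS2 had a ratio of -2.88 (at least 1.99-fold). HOTAIR, the HOXC transcript that has been tied to Polycomb targeting, was at background on every array, at 5.34, 3.07, 0.349 and 2.93. Of 4 measured after the knockdown 1 was lower, HAGLR of the HOXD cluster at 28.9 against 45.7 (ratio -1.08), against 7.76% of all genes, and 0 were higher, against 8.13%. With HA-G9a 0 of 8 passed 2-fold, against 3.74% lower and 5.46% higher.

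**Figure D4:**
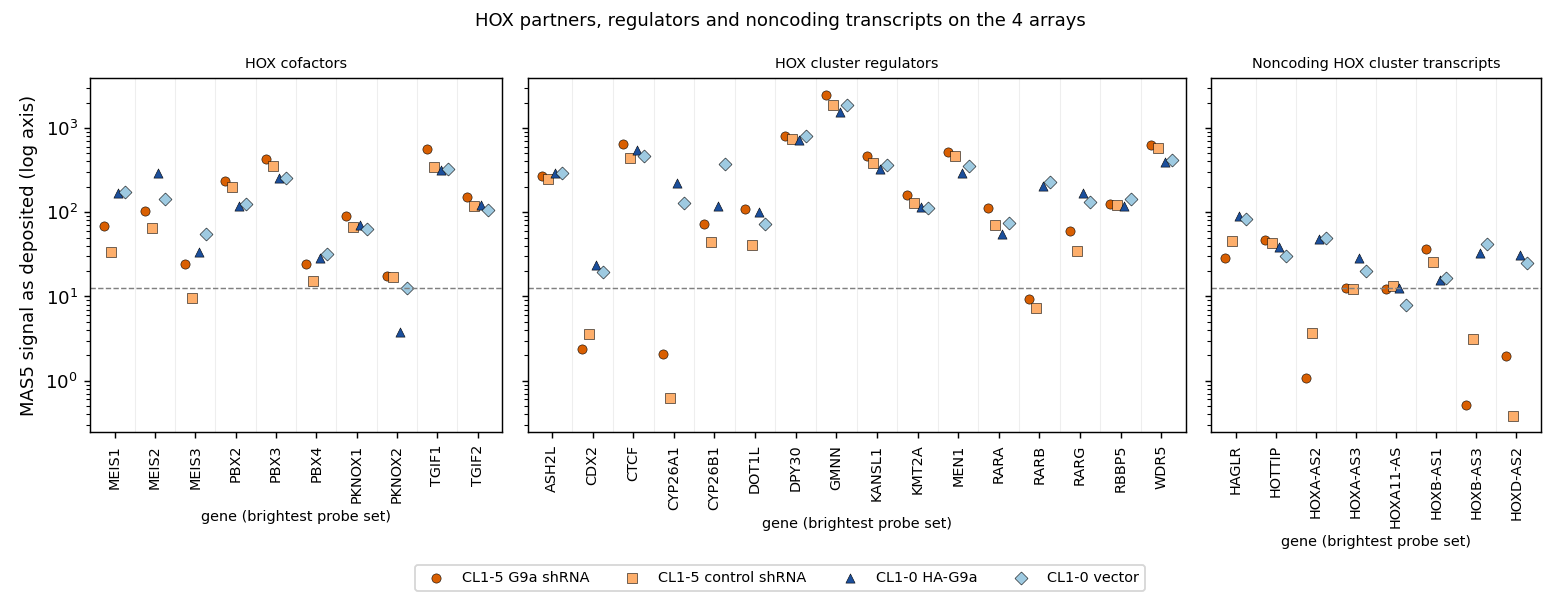
MAS5 signal (log axis) of the brightest probe set of HOX cofactors, regulators of the clusters and noncoding HOX cluster transcripts that were at or above 12.5 (dashed line) on at least 1 array, with 1 point for each array. RARB and CYP26A1 lie below 12.5 on both CL1-5 arrays and above 100 on both CL1-0 arrays.

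Of the genes that flank the clusters, 7 were measured between the controls. Of these 1 was lower, against 13.2% of all genes, and 1 higher, against 12.6%, so both counts were close to the shares over all genes. SKAP2 beside the HOXA cluster was lower in the CL1-5 control (124 against 600 in the vector, relative log2 ratio -2.27) and LNPK beside the HOXD cluster was higher (252 against 102, ratio 1.32). MTX2 at the other end of the HOXD cluster had a ratio of 0.56. After the knockdown SKAP2 read 320 against 124 (relative ratio 0.95, deposited ratio 1.37), and after centring 0 of 7 passed 2-fold, against 7.76% lower and 8.13% higher. With HA-G9a 0 of 7 did, against 3.74% and 5.46%.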

How the data were processed

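Total RNA of 4 cell populations was labelled and hybridised to 1 Affymetrix array each. The deposited table gives, for every probe set, a linear signal intensity from each array. MAS5 is the tool named per the submitters' processing notes, and for its settings and scaling target the sources say nothing. Probe sets were named by the platform annotation, with symbols updated by Entrez identifier to RefSeq GRCh38.p14 (41043 of 41097 matched), and 58 probe sets for sex-linked transcripts (the Y chromosome, XIST) were dropped from the totals.

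The deposited intensities were floored at 3.35 and log2-transformed. Each ratio was set relative to the median of genes, each represented by its probe set with the highest mean signal, whose brighter array reached 12.5. With 1 array per group a fixed 2-fold threshold was used and no p-value. Lines were compared by limma 3.58.1 (lmFit, eBayes, R 4.3.3) on all single-gene probe sets at or above 12.5 on any of the 4 arrays, with Benjamini-Hochberg adjustment at 0.05. Other steps used Python 3.11.15, pandas 2.3.3 and NumPy 2.4.6, and both steps were tested on simulated data. All HOX probe sets at or above the threshold could be named; of the other lists, members past 2-fold and up to 4 with the largest ratios per comparison. Other named members (PBX3, KMT2A, RARA and other regulators, DLX1, HOTAIR, MTX2, PECAM1, COL3A1, VWF, TEK, PTPRC) were chosen after their values were seen. The members and lists were chosen with earlier results of these data known. Alternatives covered scaling, floor, filter, probe set type, 1 value per gene and, for limma, left-out populations and a G9a term. Probe sets ending in _s_at and _x_at can match further transcripts, and HOX paralogs share homeobox sequence.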

Additional observations from a re-analysis of the deposited data

How the results depend on the processing

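With 1 array per group, precision is limited by the number of arrays, and many HOX signals were close to background. No paired analysis was possible because each group had 1 array and the labels give no replicate numbers to pair, and the fit with the G9a arm below is a model term. For CL1-5 control over CL1-0 vector, 24 HOX probe sets passed 2-fold as deposited, with arrays scaled to one median and after quantile normalization too, but 13 with log2(value + 16), 11 of 14 under the stricter filter of 84.2 and 15 of 17 without _s_at and _x_at probe sets. For HA-G9a over vector the count of 3 became 1 with log2(value + 16), 1 under the stricter filter (HOXB5), 5 with no filter and 0 without _s_at and _x_at probe sets. For G9a shRNA over control shRNA the count of 9 became 2 with log2(value + 16), 1 under the stricter filter, 4 without _s_at and _x_at probe sets, 5 with 1 value per gene and 5 with values under 12.5 set to it, a setting chosen after seeing the data that left 2 for HA-G9a and 20 between the controls. That pseudocount shrinks ratios of dim probe sets, and the filters leave fewer probe sets. With values under 12.5 set to it, 5.86% of all were lower and 4.84% higher after the knockdown, and 1.45% and 2.41% with HA-G9a. For the alternative limma settings that follow, and for several of the ratio settings, no share over all probe sets was computed. Those counts therefore do not show whether a change was particular to HOX genes. The limma count of 2 became 9 with log2(value + 16), 6 under the stricter filter, 1 with the G9a arm in the model (HOXA2), 0 with no filter (17 at an unadjusted p of 0.05), and 0 to 0 when each population was left out in turn (10 to 18 at an unadjusted p of 0.05), where the lone sample of a line is assumed to vary like the pair of the other. For the ratios of single probe sets, 306 alternative values moved by less than the scatter between probe sets, 14 moved by more, all with log2(value + 16), and 0 changed sign among those past 2-fold.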

Other observations

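Other homeobox genes of the same class as the HOX genes also differed between the lines. Of 16 measured, 8 were at least 2-fold lower in the CL1-5 control than in the CL1-0 vector against 13.2% of all genes, and 1 was higher, against 12.6% (median log2 ratio -0.85). Of the distal-less genes, which pattern limbs and craniofacial tissue, DLX1 read 209 in the CL1-5 control against 174 in the CL1-0 vector (ratio 0.28). DLX2 read 26.9 in the CL1-5 control against 377 in the CL1-0 vector (ratio -3.79), DLX6 5.73 against 82.1 (ratio -3.83), DLX4 11.7 against 89.4 (ratio -2.92) and DLX5 12.2 against 43.0 (ratio -1.81). The CL1-5 control was below 12.5 for DLX4, DLX5 and DLX6, which were at least 7.16-fold, 3.44-fold and 6.58-fold lower. EMX2 had a ratio of -2.14 (at least 2.46-fold), EN1 of -1.50, MNX1 of -1.21 and BARX1 of -1.01. BARX2 was higher, at 14.7 against 4.10 (ratio 1.86, at least 1.18-fold).

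After the knockdown 4 of 14 measured genes of this class were at least 2-fold higher and 2 lower, against 8.13% and 7.76% of all genes. DLX2 read 261 with G9a shRNA against 26.9 with control shRNA (ratio 2.86) and MSX2, a BMP-responsive gene, 294 against 81.8 (ratio 1.42). DLX4 read 44.3 against 11.7 (ratio 1.50, at least 3.54-fold) and DLX6 17.4 against 5.73 (ratio 1.18, at least 1.39-fold). NKX2-1, the lung lineage factor, read 3.87 against 29.6 (ratio -3.35, at least 2.37-fold) and BARX1 25.1 against 45.0 (ratio -1.26). With HA-G9a 2 of 16 measured were at least 2-fold higher, against 5.46% of all genes, and 1 was lower, against 3.74%. BARX2 read 17.1 against 4.10 with the vector (ratio 2.14, at least 1.37-fold) and NKX2-1 60.2 against 31.2 (ratio 1.03). EMX2 was lower (ratio -1.10).

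The probe set annotated to HOXD3, HOXD4 and a further locus together that was brightest read 0.986 with G9a shRNA, 0.507 with control shRNA, 8.33 with HA-G9a and 15.3 with the vector. Its 2 companions did not exceed 6.77 on any array.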
